A study of Mus musculus with 18 samples.

Results

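Collagens, the proteases that cut them, the inhibitors of those proteases and the enzymes that cross-link them were examined in livers of mice given asparaginase (ASNase), a leukemia drug whose enzyme activity depletes circulating asparagine. The members were every gene whose name in the expression table begins with Col, digits, a and a digit, begins with Mmp and a digit, is Timp1 to Timp4, or is Lox or one of its 4 Loxl paralogs, with an estimate in all 6 groups. This gave 76 of the 37303 names in the table, and none was lost for a failed estimate. Of the 76, 34 had an expression value (FPKM, fragments scaled to transcript length and to the number of mapped fragments) over 1 in at least 1 group and are described singly. The other 42 stayed at or under 1, and 5 of them (Mmp1a, Mmp1b, Mmp10, Mmp20 and Col9a1) were listed at 0 in every group. A further name taken by the rule, Col4a3bp, encodes a ceramide transfer protein and not a collagen.

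The 18 livers came from WT, Gcn2-/- and Atf4-/- mice, all on a C57BL/6J background, with 3 mice for each strain and treatment. GCN2, encoded by Eif2ak4, is the kinase that phosphorylates eIF2 when amino acids run short, and ATF4 is a transcription factor whose translation then increases; both deletions were of the whole body, so cells outside the liver lacked the protein too. ASNase at 3 IU per gram body weight, or PBS, was injected into the peritoneum once a day for 8 days, and the mice were killed 7.5 h after the last injection by the labels, or about 8 h by the methods text. The labels give ages of 8 to 16 weeks in the sample fields and up to 12 weeks in the growth protocol. Males were 1 of 3 mice in WT PBS and in both Gcn2-/- groups, and 2 of 3 in WT ASNase and in both Atf4-/- groups. Sex was thus divided alike in each knockout's own PBS and ASNase groups but not in WT ASNase against WT PBS, and where it was not, its part cannot be told apart from that of the comparison.

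Fibrillar collagens are triple helices of 3 chains that assemble into fibrils and give scar tissue its strength, whereas type IV collagen forms the sheet under epithelium and endothelium. Matrix metalloproteinases (MMPs) are zinc enzymes that cut these proteins, tissue inhibitors of metalloproteinases (TIMPs) block them, and lysyl oxidases link collagen chains to one another. In liver the fibrils are laid down mainly by stellate cells and portal fibroblasts, and their gain is the mark of fibrosis, so the mRNAs of this set are commonly read as fibrosis readouts.

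The table holds 1 FPKM per gene and group, estimated from the 3 libraries together, with an interval around each value, and it carries no counts, so no depth is attached to a value here. The differences below therefore have no check against the spread of mice, and none carries a p-value. A difference was called when both values were above 0, either was over an FPKM of 3, log2(FPKM + 0.1) differed by more than 1.5, and the intervals did not overlap. The error given after ± for a log2 difference joins the widths of both intervals on that scale, and fold changes of low genes are understated on it. The intervals of members over 1 were wide: the median distance from the value to its upper bound was between 53.4% and 68.8% of the value, depending on the group. RNA of a whole liver was measured, so fewer cells of a type and less RNA per cell cannot be told apart.

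The libraries differed in traces of other tissues. Liver identity was plain in all groups, with the 9 hepatocyte markers that had estimates summing to between 9053 and 21032 FPKM. The 15 skeletal muscle markers summed to 959 FPKM with PBS and 1362 with ASNase in WT liver, against 7.24 to 168 in the other 4 groups. The 10 pancreatic acinar markers summed to 383 in Atf4-/- ASNase and 72.5 in WT ASNase, against 5.47 to 16.1 elsewhere, and the 7 lung epithelial markers to 136 in WT PBS against 1.19 to 3.19 elsewhere. Atf4 itself was at 32.3 and 29.3 FPKM in the Atf4-/- groups and between 50.4 and 68.1 in the others, while Eif2ak4 lay between 2.19 and 3.14 in all 6 groups and a gene-level value does not check a deletion of part of a gene.

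Among the 34 members described singly, ASNase moved none in WT liver past the rule, and with either deletion it moved a few, in both directions. In WT ASNase against WT PBS, 0 of 15 eligible members were called higher and 0 lower, where 0.760% of all 9084 eligible genes were called higher and 0.121% lower. In Gcn2-/- mice ASNase raised Mmp7 and lowered Mmp15, which is 1 of 16 eligible members each way, against 1.56% and 2.13% of all eligible genes. In Atf4-/- mice Mmp7 rose again, and Col3a1, Col5a3, Col14a1, Mmp15 and Mmp19 fell. That is 1 and 5 of 17 eligible members, against 2.74% called higher and 4.63% called lower among all eligible genes.

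Without ASNase, neither deletion gave a call among the members. In Gcn2-/- PBS against WT PBS 0 of 14 eligible members were called either way, where 0.392% of all eligible genes were called higher and 0.650% lower. In Atf4-/- PBS against WT PBS it was 0 of 15, where 0.354% were called higher and 0.763% lower. With ASNase, members were called in each comparison of strains. Gcn2-/- ASNase against WT ASNase gave Mmp7 higher and Col3a1, Col5a3, Col14a1 and Mmp15 lower, or 1 and 4 of 18 eligible members, against 1.83% and 2.59% of all eligible genes. Atf4-/- ASNase against WT ASNase gave Mmp7 and Col13a1 higher and Col3a1, Col1a2, Col5a3, Col14a1, Col6a1, Mmp15 and Mmp19 lower, or 2 and 7 of 18, against 2.59% and 5.66%. Atf4-/- ASNase against Gcn2-/- ASNase gave Col3a1 and Mmp19 lower, 2 of 14 eligible members with 0 higher, against 2.29% lower and 0.898% higher among all eligible genes. Each ASNase group stands in several of these comparisons, so their counts are not independent. Mmp7 became eligible only through the groups where it was high, so its call was partly fixed by the filter, and Col13a1 passed the minimum only in the ASNase-treated knockouts.

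**Figure D1:**
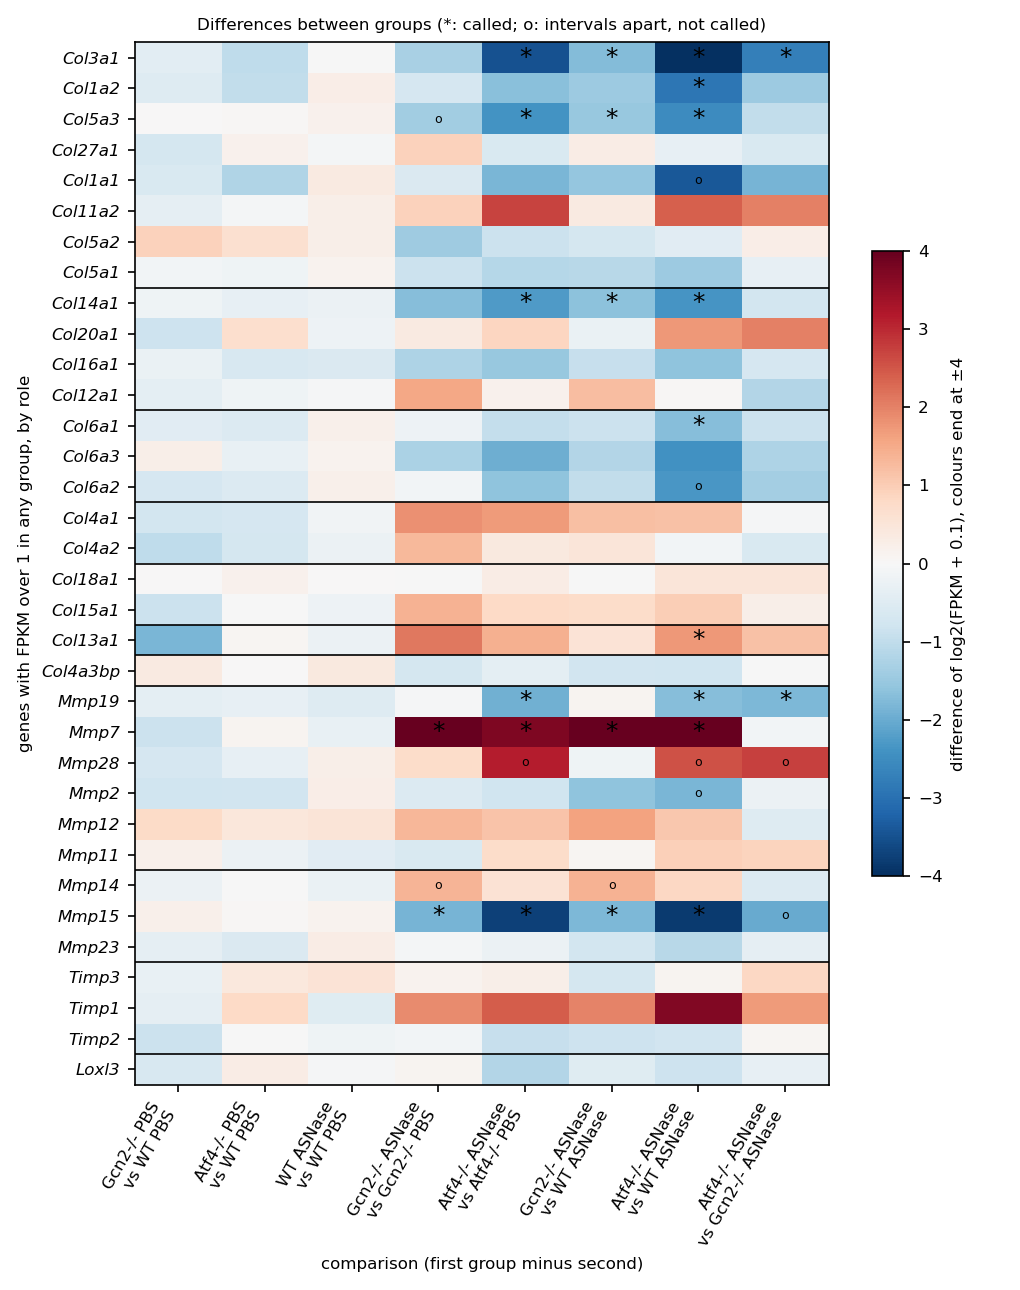
Difference of log2(FPKM + 0.1) between groups for the 34 genes with an FPKM over 1 in any group, arranged by role (rows) in 8 comparisons (columns); red is higher and blue lower in the first group, an asterisk marks a call and a circle separate intervals without a call. The left 3 columns hold no mark, and the marks for fibrillar collagens, Col14a1 and Mmp15 are all on the blue side.

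The median log2 difference of the eligible members was lowest in ASNase-treated knockouts against WT ASNase. It was 0.00 in WT after ASNase, 0.06 in Gcn2-/- after ASNase and 0.23 in Atf4-/- after ASNase, where the medians over all eligible genes were -0.01, 0.02 and 0.08. Against WT ASNase it was -0.36 in Gcn2-/- ASNase and -0.43 in Atf4-/- ASNase, where all eligible genes had 0.05 and 0.07. In Gcn2-/- PBS against WT PBS it was -0.35, with 10 of 14 eligible members lower and an overall median of 0.06. In Atf4-/- PBS against WT PBS it was -0.01 and in Atf4-/- ASNase against Gcn2-/- ASNase -0.07, where all eligible genes had 0.00 in both. These medians cover only the members that passed the FPKM minimum and are a description.

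Throughout, paired values stand with PBS before ASNase. By level the set was led by 1 gene. Col18a1, a basement membrane collagen of the multiplexin class whose C-terminal fragment is endostatin, stood at 172 FPKM with PBS and 173 with ASNase in WT liver, at 174 and 171 in Gcn2-/- liver, and at 194 and 239 in Atf4-/- liver. Its intervals overlapped in every comparison, and its largest log2 difference was 0.48 ± 1.46, between the ASNase-treated knockouts. FPKM is scaled to gene length, so levels of different genes can be ordered: Mmp14, Mmp19, Col4a1, Col14a1, Col4a3bp, Col3a1 and Timp3 followed, each with a highest value between 10.1 and 23.2. Only 19 members reached 3 in any group, so most of the set lay near the lower edge of what these intervals resolve.

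Start-site sequence from RefSeq (build GRCm38.p6) was available for 58 of the 76 members and for 26 of the 34 described singly. The 130 bases before the start are shown for a pair of collagens that fell in Atf4-/- ASNase livers, for the protease that rose in both knockouts and for the inhibitor with the largest difference among the TIMPs. Capitals mark matches to motifs that were searched on both strands. TATAAA stood for the box that gives many promoters a fixed start. For the AP-1 element the letters were TGANTCA. For the binding site of NF-Y the search used CCAAT. The core of the composite element of C/EBP and ATF factors was written as TGATGNAA. In Mmp7 the CCAAT and the TATAAA farther from the start share 1 base. The stretches are, in order, chr1:45311408-45311537 (plus strand), chr9:20815068-20815197 (minus strand), chr9:7691960-7692089 (plus strand) and chrX:20870036-20870165 (plus strand).
Col3a1: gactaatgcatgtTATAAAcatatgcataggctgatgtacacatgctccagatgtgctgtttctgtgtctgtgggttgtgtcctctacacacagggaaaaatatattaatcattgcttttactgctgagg
Col5a3: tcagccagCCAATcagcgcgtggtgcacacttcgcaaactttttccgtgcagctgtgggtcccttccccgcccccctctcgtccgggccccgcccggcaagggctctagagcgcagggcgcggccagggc
Mmp7: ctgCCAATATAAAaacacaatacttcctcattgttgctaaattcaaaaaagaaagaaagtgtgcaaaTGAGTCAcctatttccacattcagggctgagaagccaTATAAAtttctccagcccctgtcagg
Timp1: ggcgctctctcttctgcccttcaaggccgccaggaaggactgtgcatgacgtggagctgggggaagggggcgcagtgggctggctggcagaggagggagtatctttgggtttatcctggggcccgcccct
The Mmp7 stretch held TATAAA beginning 26 bases before the start and TGAGTCA beginning 63 bases before it. Over windows from 250 bases before to 50 after each start, TATAAA was found in 13.6% of all 32851 windows and in 5 of the 26 members, TGANTCA in 7.81% and in 3 (Mmp7, Mmp12 and Col6a1), and CCAAT in 37.4% and in 10. TGATGNAA was found in 3.97% of all windows and in 0 of the 26 members. The shares are per window, whereas the 26 members had 31 windows and counted with a match in any of theirs. A match is only a run of letters, and a missing one says only that these letters are not in this window.

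The fibrillar collagens were 11 genes, of which 8 passed an FPKM of 1. Summed over the 11, they came to 27.4 FPKM with PBS and 29.8 with ASNase in WT liver, to 22.0 and 12.9 in Gcn2-/- liver, and to 19.4 and 8.26 in Atf4-/- liver. After ASNase 6 of the 8 were lower in Gcn2-/- liver with a median log2 difference of -0.76, and 7 of the 8 in Atf4-/- liver with a median of -1.41, while in WT 6 of the 8 were higher with a median of 0.19. Lower calls after ASNase were 0 of 4 eligible in Gcn2-/- liver and 2 of 3 in Atf4-/- liver (Col3a1 and Col5a3), where 2.13% and 4.63% of all eligible genes were called lower.

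Col3a1 (ENSMUSG00000026043, chr1:45311538-45349706), the chain of type III collagen, which is early and abundant in liver scar, had the largest fall of the fibrillar genes. It was at 11.0 FPKM with PBS and 10.9 with ASNase in WT liver, at 8.09 and 3.20 in Gcn2-/- liver, and at 5.43 and 0.398 in Atf4-/- liver. The WT values were equal within their intervals, and the Atf4-/- ASNase interval, 0.103 to 0.692, lay below those of all 5 other groups. The log2 difference after ASNase was -3.47 ± 1.18 in Atf4-/- liver, which was called, and -1.31 ± 0.98 in Gcn2-/- liver, where the intervals overlapped by a small margin (1.65 to 4.75 against 4.62 to 11.6) and no call was made. Against WT ASNase it was called lower in both knockouts, by -1.74 ± 1.01 and -4.47 ± 1.20. The response in Atf4-/- liver was below that in WT by -3.47 ± 1.53 and below that in Gcn2-/- liver by -2.16 ± 1.54 on the log2 scale, each over its error.

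Type I collagen, built of 2 chains from Col1a1 and 1 from Col1a2, was also lowest in Atf4-/- ASNase, at lower levels. Col1a2 was at 4.39 FPKM with PBS and 5.28 with ASNase in WT liver, at 3.01 and 1.85 in Gcn2-/- liver, and at 2.19 and 0.620 in Atf4-/- liver. Col1a1 was at 2.23 and 2.91 in WT, at 1.43 and 0.932 in Gcn2-/-, and at 0.908 and 0.186 in Atf4-/- mice. In both genes the Atf4-/- ASNase group was lowest and WT ASNase highest. Within the Atf4-/- strain neither difference after ASNase was called (-1.67 ± 1.74 and -1.82 ± 2.59), since the intervals overlapped and no value reached 3. Against WT ASNase, Col1a2 was called lower in Atf4-/- ASNase by -2.90 ± 1.78, and Col1a1 had separate intervals at -3.39 ± 1.78 but no value over 3. Col1a1 stood below Col1a2 in every group, with a ratio between 0.301 in Atf4-/- ASNase and 0.550 in WT ASNase.

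Type V collagen sits in the core of type I fibrils and sets their width. Its chain Col5a3 (ENSMUSG00000004098, chr9:20770050-20815067) was at 4.13 FPKM with PBS and 4.63 with ASNase in WT liver, at 4.20 and 1.55 in Gcn2-/- liver, and at 4.25 and 0.727 in Atf4-/- liver. The 3 PBS groups and WT ASNase were level, and only the ASNase-treated knockouts were low. The fall was called in Atf4-/- liver at -2.40 ± 1.10, while in Gcn2-/- liver the intervals were separate at -1.38 ± 0.97, under the limit of 1.5. Both responses differed from that of WT by more than their error, by -1.54 ± 1.34 and -2.55 ± 1.44. The other chains of type V were lower still: Col5a1 lay at 1.26 and 1.41 in WT, 1.16 and 0.594 in Gcn2-/- and 1.12 and 0.447 in Atf4-/- mice. Col5a2 lay at 1.0 and 1.19 in WT, 2.01 and 0.696 in Gcn2-/- and 1.63 and 0.849 in Atf4-/- mice. Both had overlapping intervals in each comparison.

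Not every fibrillar chain was low after ASNase in the knockouts. Col27a1, a chain found mainly in cartilage, was at 2.96 and 2.78 FPKM in WT, at 1.77 and 3.41 in Gcn2-/- and at 3.36 and 2.19 in Atf4-/- mice, with no direction held by both knockouts. Col11a2, a chain of the cartilage collagen XI, was at 0.377 and 0.456 in WT, at 0.274 and 0.615 in Gcn2-/-, and at 0.350 and 2.80 in Atf4-/- mice. Its highest value stood in the group where Col3a1 and Col1a1 were lowest, but all 6 intervals reached 0 and it was not called.

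**Figure D2:**
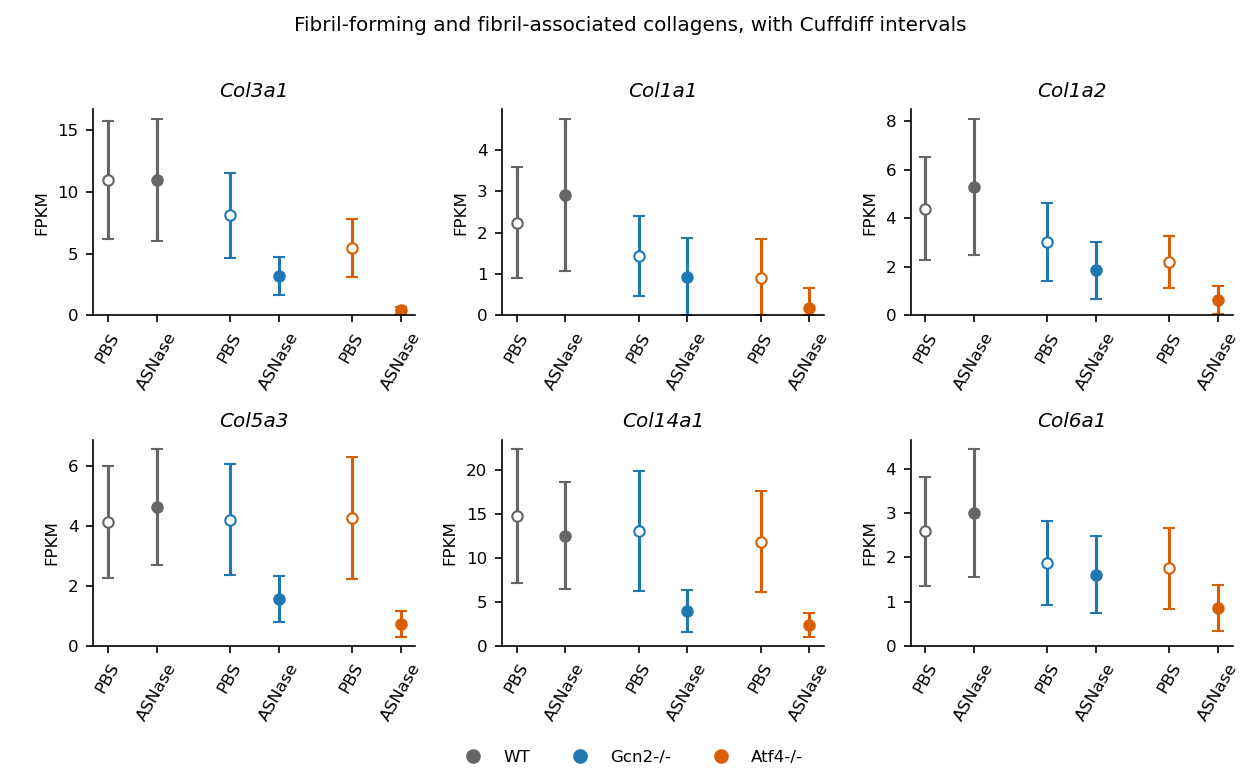
FPKM of 6 collagen genes (y axes, linear from 0) in the 6 groups (open points PBS, filled points ASNase, colour by strain), with bars for the Cuffdiff interval of each group value from 3 pooled mice. For Col3a1, Col5a3 and Col14a1 the Atf4-/- ASNase interval lies below that of Atf4-/- PBS, and WT PBS and WT ASNase overlap in all 6 panels.

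Of the fibril-associated collagens 1 gene was called. Col14a1 (ENSMUSG00000022371, chr15:55307750-55520803), which coats fibrils and regulates their growth, was at 14.7 FPKM with PBS and 12.5 with ASNase in WT liver, at 13.1 and 3.94 in Gcn2-/- liver, and at 11.8 and 2.35 in Atf4-/- liver. It was among the most abundant of the members in PBS-treated liver, and the ASNase-treated knockouts held the lowest values. The fall was called in Atf4-/- liver at -2.28 ± 1.17, a response that differed from that in WT by -2.04 ± 1.62. In Gcn2-/- liver it measured -1.71 ± 1.30, but the intervals overlapped by a small margin (1.51 to 6.36 against 6.24 to 19.9). Col16a1, another fibril-associated chain, was at 2.24 and 1.48 in WT, 1.86 and 0.727 in Gcn2-/- and 1.38 and 0.418 in Atf4-/- mice, with intervals that all reached 0.

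Col12a1, a close relative of Col14a1, was at 0.650 and 0.632 FPKM in WT, 0.478 and 1.61 in Gcn2-/- and 0.564 and 0.654 in Atf4-/- mice. Col20a1 was at 0.803 and 0.684 in WT, 0.409 and 0.554 in Gcn2-/- and 1.35 and 2.53 in Atf4-/- mice. Neither was low in the groups where Col14a1 was low, and the intervals of both overlapped throughout.

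Type VI collagen makes beaded filaments around cells from chains encoded by Col6a1, Col6a2 and Col6a3, and all 3 lay lowest in Atf4-/- ASNase. Col6a1 was at 2.59 and 3.01 FPKM in WT, 1.88 and 1.61 in Gcn2-/- and 1.75 and 0.853 in Atf4-/- mice. Col6a2 was at 1.77 and 2.04 in WT, 1.08 and 0.985 in Gcn2-/- and 1.18 and 0.323 in Atf4-/- mice. Col6a3 was at 2.34 and 2.62 in WT, 2.75 and 1.10 in Gcn2-/- and 1.87 and 0.408 in Atf4-/- mice. The only call was Col6a1 against WT ASNase, at -1.71 ± 1.16 with a WT value just over 3. For Col6a2 the response in Atf4-/- liver differed from that in WT by -1.79 ± 1.67, which passed its error by little, and all intervals of Col6a3 reached 0.

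Basement membrane collagen did not share the low values of the fibrillar class. Col4a1 and Col4a2 encode the chains that combine as type IV collagen, and they are read in opposite directions from a shared start. In the RefSeq windows the first exons overlap by 22 bases, capitals below, within chr8:11312801-11312830 (GRCm38.p6, written on the Col4a2 strand).
Col4a1 and Col4a2: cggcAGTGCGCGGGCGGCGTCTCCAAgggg
Col4a1 was at 7.00 FPKM with PBS and 6.40 with ASNase in WT liver, at 4.15 and 14.9 in Gcn2-/- liver, and at 4.37 and 14.6 in Atf4-/- liver. Col4a2 was at 5.58 and 4.78 in WT, 2.69 and 6.78 in Gcn2-/- and 3.39 and 4.44 in Atf4-/- mice. Col4a1 was thus highest in both ASNase-treated knockouts, at log2 differences of 1.82 ± 1.66 and 1.71 ± 2.88 from PBS, but the intervals were wide (3.52 to 26.3 and 0.531 to 28.6) and overlapped those under PBS, so it was not called.

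The ratio of the chains was not tested and is given as a description. Col4a1 over Col4a2 was 1.25 and 1.34 in WT, 1.54 and 2.20 in Gcn2-/- and 1.29 and 3.28 in Atf4-/- liver. Set against fibrils, Col4a1 over Col3a1 was between 0.513 and 0.806 in the PBS groups and WT ASNase, 4.66 in Gcn2-/- ASNase and 36.6 in Atf4-/- ASNase. These ratios carry the error of both values. In the deposited table both type IV genes lie in 1 merged locus, and whether the split of reads between them was even across groups was not tested.

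**Figure D3:**
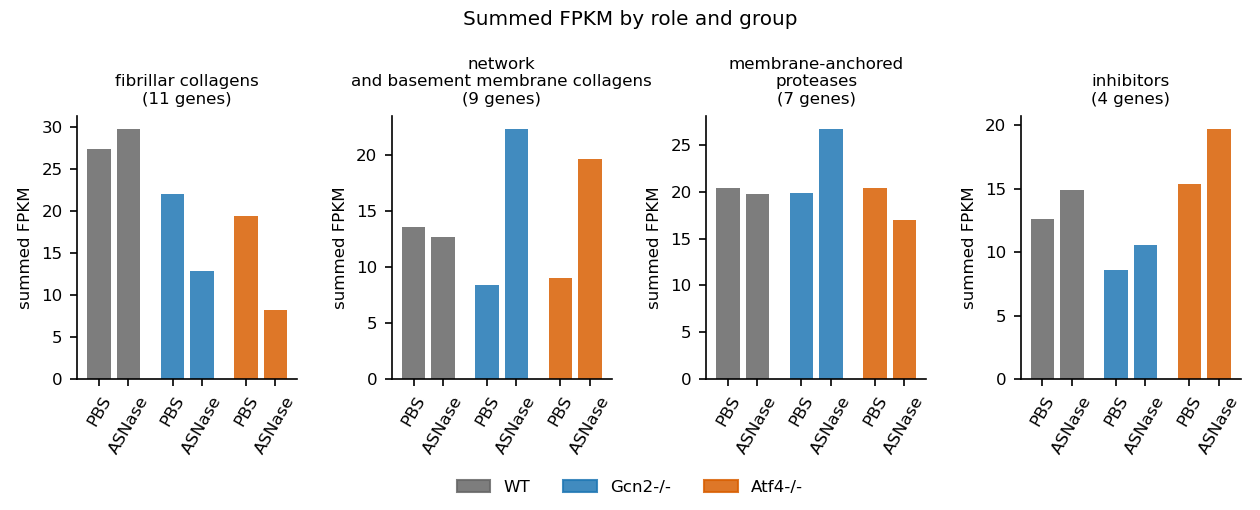
Summed FPKM (y axes from 0) of 4 classes of members in the 6 groups, bars coloured by strain with PBS left of ASNase; the sums carry no error bars, since the intervals of single genes cannot be added. Fibrillar collagens sum to 12.9 and 8.26 in ASNase-treated Gcn2-/- and Atf4-/- livers, while network and basement membrane collagens stand at 22.4 and 19.7 there.

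Col15a1, the other multiplexin, which bridges basement membrane and fibrils, was at 3.31 and 2.86 FPKM in WT, 1.78 and 4.88 in Gcn2-/- and 3.28 and 5.73 in Atf4-/- mice. It too stood highest in ASNase-treated knockouts, with all intervals reaching 0. Col13a1, a collagen anchored in the cell membrane at cell contacts, was at 2.55 and 2.15 in WT, 0.652 and 3.16 in Gcn2-/- and 2.69 and 7.32 in Atf4-/- mice. It was called higher in Atf4-/- ASNase against WT ASNase at 1.72 ± 1.18. Within strains it was not called: the log2 difference after ASNase was 2.12 ± 1.85 in Gcn2-/- mice, where it started from the lowest PBS value, and 1.41 ± 1.13 in Atf4-/- mice.

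The proteases split by gene and not by class. Mmp14 and Mmp15 are both anchored in the membrane with the catalytic domain outside the cell, and Mmp14 is the main activator of the gelatinase Mmp2. Mmp14 (ENSMUSG00000000957, chr14:54431612-54445364) was at 10.6 FPKM with PBS and 8.79 with ASNase in WT liver, at 9.0 and 23.2 in Gcn2-/- liver, and at 10.6 and 15.7 in Atf4-/- liver. Only Gcn2-/- ASNase had an interval (13.7 to 32.7) apart from its PBS group. That difference, 1.36 ± 0.91, stayed under the limit of 1.5 and was not called. The response in Gcn2-/- liver was above that in WT by 1.63 ± 1.28.

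Mmp15 (ENSMUSG00000031790, chr8:95352268-95375080) ran the other way. It was at 8.63 FPKM with PBS and 9.50 with ASNase in WT liver, at 9.94 and 2.64 in Gcn2-/- liver, and at 9.01 and 0.578 in Atf4-/- liver. The 4 groups other than the ASNase-treated knockouts lay within 8.63 to 9.94. The fall was called in both knockouts, at -1.87 ± 0.97 and -3.75 ± 1.12, and both responses differed from that in WT, by -2.01 ± 1.32 and -3.89 ± 1.43. The response in Atf4-/- liver was also below that in Gcn2-/- liver, by -1.88 ± 1.48. Mmp23, which is tethered by its N-terminal end, was at 0.979 and 1.23 in WT, 0.734 and 0.696 in Gcn2-/- and 0.627 and 0.519 in Atf4-/- mice, with overlapping intervals.

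Mmp7 (ENSMUSG00000018623, chr9:7692090-7699585), matrilysin, a small secreted protease made by epithelia under injury, was almost absent except in ASNase-treated knockouts. It was at 0.166 FPKM with PBS and 0.119 with ASNase in WT liver, at 0.0478 and 4.06 in Gcn2-/- liver, and at 0.189 and 3.75 in Atf4-/- liver. The high values had intervals of 1.58 to 6.55 and 1.03 to 6.47, and the intervals of the 4 low values all reached 0. The rise was called in both strains, at 4.82 ± 1.22 and 3.74 ± 1.75, and both responses differed from that in WT, by 5.10 ± 1.93 and 4.02 ± 2.30. The levels in the ASNase-treated knockouts did not differ from each other (-0.11 ± 1.61). The 10 pancreatic acinar markers summed to 16.1 and 383 FPKM in Atf4-/- and to 10.6 and 5.47 in Gcn2-/- mice, with 7 of them listed at 0 in Gcn2-/- ASNase, and their part in the Mmp7 value of Atf4-/- ASNase was not tested. The gene shares 123 exon bases with an antisense transcript, AV064505.

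Mmp19 (ENSMUSG00000025355, chr10:128790910-128800824), a secreted protease of wide tissue range, fell in Atf4-/- and not in Gcn2-/- liver. It was at 16.3 FPKM with PBS and 11.3 with ASNase in WT liver, at 12.4 and 12.1 in Gcn2-/- liver, and at 13.0 and 3.39 in Atf4-/- liver. The difference after ASNase was called in Atf4-/- liver at -1.91 ± 1.30, stood at -0.03 ± 1.14 in Gcn2-/- liver, and the responses differed by -1.87 ± 1.73. From the WT response, that in Atf4-/- liver differed by -1.38 ± 1.73, which did not pass the rule. Of its exon bases 789 are shared with Tmem198b on the opposite strand, which was itself lowest in Atf4-/- ASNase at 4.21 FPKM against 7.41 to 11.1 in the other groups. Reads of the pair cannot be told apart without strand.

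Mmp28, epilysin, showed the reverse in the same group. It was at 0.187 and 0.238 FPKM in WT, 0.0805 and 0.198 in Gcn2-/- and 0.127 and 1.89 in Atf4-/- mice. The Atf4-/- ASNase interval, 0.657 to 3.13, lay above those of all other groups, at 3.14 ± 1.48 from its PBS group, but no value reached 3 and it was not eligible. It shares 466 exon bases with 1700020L24Rik on the opposite strand, which was at 0.806 in that group and at 0.139 or less in the others.

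The gelatinase Mmp2, which stellate cells and fibroblasts make, was likewise highest in WT ASNase and lowest in Atf4-/- ASNase, at 1.38 and 1.68 FPKM in WT, 0.753 and 0.485 in Gcn2-/- and 0.768 and 0.397 in Atf4-/- mice. Its intervals were separate only between Atf4-/- ASNase and WT ASNase, at -1.84 ± 1.33, below the FPKM minimum. Mmp12, the macrophage elastase, was at 0.181 and 0.298 in WT, 0.377 and 1.10 in Gcn2-/- and 0.283 and 0.735 in Atf4-/- mice. Mmp11, stromelysin-3, lay between 0.503 and 1.07 in all groups, and 155 of its exon bases are shared with Chchd10, which lay between 243 and 623. Neither Mmp12 nor Mmp11 had separate intervals in any comparison. Mmp9, the other gelatinase, did not pass 0.680 FPKM.

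**Figure D4:**
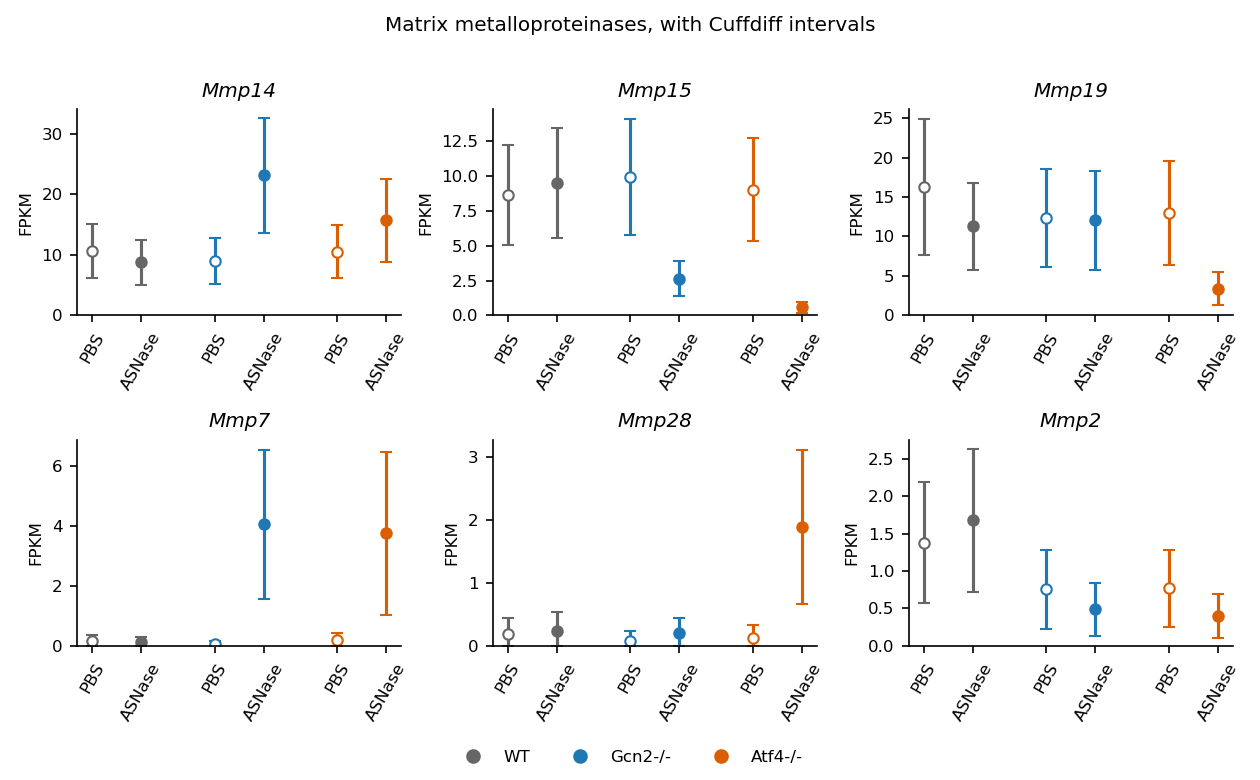
FPKM of 6 metalloproteinase genes (y axes, linear from 0) in the 6 groups (open points PBS, filled points ASNase, colour by strain), with bars for the Cuffdiff interval of each group value. Mmp15 is low and Mmp7 high in the ASNase-treated Gcn2-/- and Atf4-/- groups, Mmp14 is highest in Gcn2-/- ASNase, and Mmp19 low and Mmp28 high only in Atf4-/- ASNase.

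Of the inhibitors, Timp1 is the one most often raised in injured liver. It was at 0.626 FPKM with PBS and 0.424 with ASNase in WT liver, at 0.461 and 1.97 in Gcn2-/- liver, and at 1.18 and 6.66 in Atf4-/- liver. The highest values stood in both ASNase-treated knockouts, at log2 differences of 1.88 ± 4.14 and 2.41 ± 4.99. Every one of its intervals reached 0, up to 27.8 in Atf4-/- ASNase, so no difference could be separated from the error of the estimates. The gene (chrX:20870166-20874735) lies inside Syn1 on the opposite strand, whose FPKM was 0.190 or less and whose exons share no base with it.

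Timp2, which also takes part in the activation of Mmp2 by Mmp14, was at 5.57 and 4.96 FPKM in WT, 3.00 and 2.74 in Gcn2-/- and 5.57 and 2.89 in Atf4-/- mice. Timp3, which binds to matrix, was at 6.32 and 9.28 in WT, 5.07 and 5.60 in Gcn2-/- and 8.59 and 10.1 in Atf4-/- mice, and shares 1733 exon bases with Syn3, which was under 1 throughout. Neither had separate intervals anywhere, and Timp4 stayed under 1. Mmp14 over Timp2 was 1.91 and 1.77 in WT, 3.00 and 8.45 in Gcn2-/- and 1.90 and 5.44 in Atf4-/- mice again with the error of both values.

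**Figure D5:**
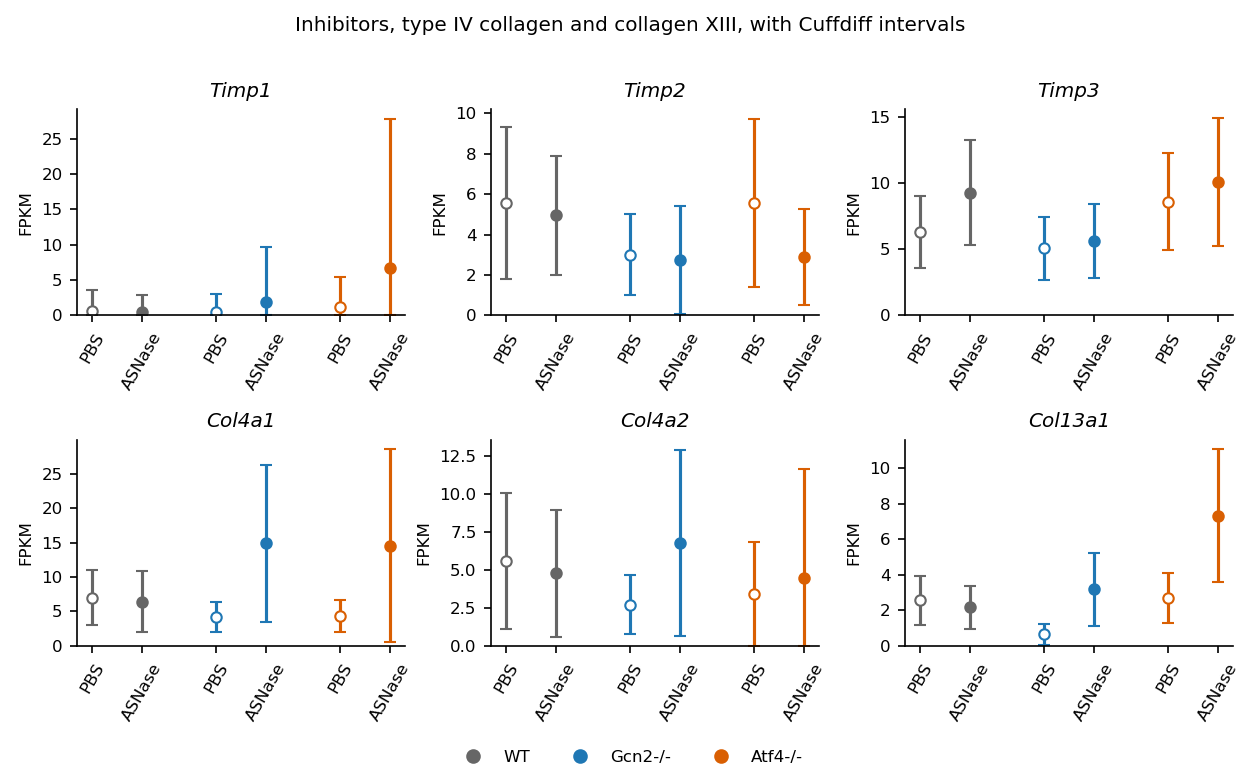
FPKM of 3 inhibitors and 3 collagens (y axes, linear from 0) in the 6 groups (open points PBS, filled points ASNase, colour by strain), with bars for the Cuffdiff interval of each group value. Timp1 and Col4a1 have their highest points in ASNase-treated knockouts, but the bars are wide and overlap those of the PBS groups.

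Lysyl oxidases were close to the floor. Loxl3 passed an FPKM of 1 in 1 group only, at 0.836 and 0.805 in WT, 0.502 and 0.547 in Gcn2-/- and 1.06 and 0.414 in Atf4-/- mice, and its intervals reached 0 throughout. It shares 535 exon bases with Htra2 on the opposite strand, which lay between 7.93 and 11.1 FPKM. Loxl1, Loxl2, Loxl4 and Lox did not pass 0.831, 0.762, 0.522 and 0.214. Just under the limit for single description stood Mmp27, at most 0.990, and Col4a5, at most 0.985; just over it stood Loxl3 and Mmp11. Col4a3bp, the transfer protein, was at 9.06 and 12.0 in WT, 11.5 and 6.97 in Gcn2-/- and 9.07 and 6.92 in Atf4-/- mice, without a call.

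The difference between strains in the response to ASNase passed its rule in 5 of the 34 members for Gcn2-/- against WT (Mmp7, Col13a1 and Mmp14 above, Mmp15 and Col5a3 below), where 4.36% of 9815 genes over an FPKM of 3 passed. It did so in 7 for Atf4-/- against WT (Mmp7 and Mmp28 above, Col3a1, Col5a3, Col14a1, Col6a2 and Mmp15 below), where 6.43% passed. For Atf4-/- against Gcn2-/- it did so in 4 (Mmp28 above, Col3a1, Mmp15 and Mmp19 below), where 3.65% passed. The first pair of contrasts shares the WT groups. The 34 include genes under an FPKM of 3, and among the 19 members over 3 the counts were 5, 5 and 3.

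The genes around the matrix were read from lists of the same pathways. Ligands and receptors that drive collagen synthesis, 22 genes of the TGF-beta and PDGF families, gave 0 calls in all 8 comparisons among the 10 to 12 that were eligible. Over the 8 comparisons, between 0.354% and 2.74% of all eligible genes were called higher and between 0.121% and 5.66% lower. Tgfb1, the main fibrogenic ligand, lay between 2.66 and 3.81 FPKM in all groups. Ctgf, a matricellular target of TGF-beta, was at 4.56 and 6.79 in WT, 2.22 and 7.04 in Gcn2-/- and 4.59 and 11.9 in Atf4-/- mice, highest where Col3a1 was lowest, and was not called. Its Atf4-/- intervals were separate, at 2.36 to 6.82 with PBS and 6.96 to 16.9 with ASNase, but the difference stayed under the fold limit. Of 10 collagen receptors and 26 ADAM and ADAMTS proteases, 2 and between 5 and 6 were eligible, and 0 were called in any comparison.

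Of the 26 names for collagen-processing enzymes and chaperones 21 had estimates, and 0 of 12 eligible were called after ASNase in any strain. Of all eligible genes 0.760%, 1.56% and 2.74% were called higher after ASNase in WT, Gcn2-/- and Atf4-/- liver. The shares called lower were 0.121%, 2.13% and 4.63%. Serpinh1, the collagen chaperone HSP47, was at 8.86 and 6.78 FPKM in WT, 5.80 and 6.48 in Gcn2-/- and 4.20 and 1.88 in Atf4-/- mice. It was called lower in Atf4-/- ASNase against WT ASNase by -1.79, and against Gcn2-/- ASNase by -1.73. Among 35 other matrix glycoproteins and proteoglycans, 1 of 15 eligible was called after ASNase in Atf4-/- liver, Lum, a small proteoglycan that binds fibrils, from 5.39 to 1.41 FPKM. In that comparison 4.63% of all eligible genes were called lower. Against WT ASNase, Sparc, a collagen-binding matricellular protein, was called lower too, at 12.0 against 35.3. Fn1, plasma and matrix fibronectin, was at 139 and 147 in WT, 164 and 412 in Gcn2-/- and 217 and 347 in Atf4-/- mice with overlapping intervals.

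Among the genes of the plasminogen system and other regulators of matrix breakdown, Serpine2, an inhibitor of serine proteases, was called higher in Atf4-/- PBS against WT PBS, at 5.24 against 1.33 FPKM.

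Markers of the cells that make fibrils differed among themselves across the groups. The 16 stellate cell and fibroblast markers summed to 161 and 172 FPKM in WT, 133 and 110 in Gcn2-/- and 176 and 143 in Atf4-/- mice, with none listed at 0. After ASNase 0 of 7 eligible were called in Gcn2-/- liver and 1 of 9, Lum, in Atf4-/- liver, with median log2 differences of -0.32 and -0.48. Of all eligible genes 2.13% and 4.63% were called lower there, and 1.56% and 2.74% higher. Against WT ASNase 1 of 9 was called lower in Gcn2-/- ASNase (Des, 1.79 against 26.8 FPKM, a gene that muscle also expresses), with a median of -0.90. In Atf4-/- ASNase it was 2 of 9 (Acta2 and Lum), with a median of -1.22. Of all eligible genes 2.59% and 5.66% were called lower in these comparisons. With PBS, Des was called lower in both knockouts too, at 1.22 in Gcn2-/- and 2.90 in Atf4-/- against 14.5 FPKM in WT. That was 1 of 9 eligible markers in each, where 0.650% and 0.763% of all eligible genes were called lower. Des stood at 7.91 in Atf4-/- ASNase. Dcn, which fibroblasts and stellate cells make in abundance, held between 72.2 and 110 in all groups. Reln was at 12.6 and 12.3 in WT, 12.3 and 4.17 in Gcn2-/- and 15.1 and 5.22 in Atf4-/- mice, with intervals that overlapped in every comparison and no call. Lrat was at 4.33 and 3.57 in WT, 2.89 and 3.43 in Gcn2-/- and 6.04 and 2.37 in Atf4-/- mice, so it was lower after ASNase in Atf4-/- but not in Gcn2-/- liver. Acta2, the actin of activated stellate cells, was at 3.38 and 7.48 in WT and between 2.14 and 3.02 in the other 4 groups. The muscle markers summed to 959 FPKM in WT PBS and 1362 in WT ASNase, and their part in the Acta2 values was not tested. The part of these shifts in the collagen values was not tested.

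Single markers of other cell types also differed between the groups. Of 11 Kupffer cell and macrophage markers with estimates, Marco rose after ASNase in both knockouts, from 8.32 to 118 FPKM in Gcn2-/- and from 9.22 to 67.3 in Atf4-/- liver, and Itgam rose in Gcn2-/- liver from 0.457 to 5.83, while Cd5l fell in Atf4-/- liver from 91.6 to 31.3. Itgam was also called higher in Atf4-/- ASNase than in WT ASNase, at 4.10 against 0.362 FPKM. The summed macrophage markers were 329 and 179 in WT, 219 and 363 in Gcn2-/- and 383 and 216 in Atf4-/- mice, PBS before ASNase. Taken gene by gene, the 10 eligible macrophage markers had a median log2 difference after ASNase of 0.44 within the Gcn2-/- strain. Within the Atf4-/- strain, also with 10 eligible, that median stood at -1.04. For WT liver, with 9 eligible, it came to -0.75. Lyz2 was called higher in Gcn2-/- ASNase than in WT ASNase, at 134 against 41.0 FPKM. It was called lower in Atf4-/- ASNase, at 38.5, than in Gcn2-/- ASNase. The part of these macrophage markers in the values of Mmp7, Mmp12 and Mmp15 was not tested. Sinusoidal endothelial markers, the cells nearest to type IV collagen, summed to between 124 and 202 with 0 of 9 or 10 eligible called after ASNase in any strain. Cholangiocyte markers summed to between 27.5 and 45.6 with 0 of 2 eligible called, and none of the 6 mesothelial markers, which summed to between 1.26 and 4.01, was eligible. Of all eligible genes, between 0.760% and 2.74% were called higher after ASNase and between 0.121% and 4.63% lower, depending on the strain. The muscle markers summed to 959 and 1362 FPKM in WT, 7.24 and 11.1 in Gcn2-/- and 77.1 and 168 in Atf4-/- mice. The part of muscle in the collagen values was not tested. Neutrophil markers summed to between 1.67 and 16.9, erythroid markers to 10.9 and 6.68 in ASNase-treated Gcn2-/- and Atf4-/- livers against 125 to 217 elsewhere, and adipose markers to between 20.3 and 75.4, and their part in the member values was not tested.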

How the data were processed

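Liver poly-A RNA of 18 mice was sequenced. The authors mapped the single-end reads with TopHat (build mm10), merged the Cufflinks assemblies and quantified genes by Cuffdiff. The deposited values are, per gene and group, 1 FPKM made from 3 libraries, its lower and upper bounds and a status. All value columns were mapped to groups by name, and 0 were left outside. Group was taken from the sample labels. Replicates in one group were separate mice, but values of single libraries were not used here. The members, gene lists and motifs were chosen with earlier results of these data known, so their counts are no independent support. Limma, planned in case single-library values were present, could not be fitted, and groups were compared on log2(FPKM + 0.1) with the rule given in the text, whose FPKM and fold limits follow the study. Named genes were members with FPKM over 1 and, from each list, genes called; other list genes (Tgfb1, Ctgf, Fn1, Dcn, Reln, Lrat) were named after their values were seen. Muscle, macrophage and other lists were summed as FPKM. The rule was run on simulated data with large planted changes and noise set to a fraction of the intervals. That setting holds no spread of mice, so it does not measure the error of the calls here. Positions are from GENCODE M21 (all 76 members matched); sequences are from RefSeq. Python 3.11.15, pandas 2.3.3, numpy 2.4.6 and matplotlib 3.10.9 were used. Pseudocounts, FPKM minima, fold limits, interval conditions and scaling were varied. Some results of the other gene lists are not reported here.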

Additional observations from a re-analysis of the deposited data

How the results depend on the processing

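Of the 186 log2 differences recomputed for the 34 members, none gained or lost a call under median-ratio scaling of the groups or a pseudocount of 0.01. Those called kept their direction. The others moved by less than their error, and their direction was not compared. That scaling moved the median of all genes by -0.06 to 0.01 on the log2 scale. With a pseudocount of 1, 180 were the same and 5 calls against WT ASNase fell short of the fold limit: in Gcn2-/- ASNase Col5a3 (-1.14) and Col14a1 (-1.45), and in Atf4-/- ASNase Col6a1 (-1.11), Mmp19 (-1.49) and Col13a1 (1.40). Mmp28 after ASNase in Atf4-/- liver moved to 1.36, and 1 member in place of 4 then passed the rule for a difference of response between Atf4-/- and Gcn2-/- mice.

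Counts of called members moved by over 1.5 times in few cases. In Gcn2-/- liver after ASNase they went from 2 to 4 with a log2 limit of 1, to 5 with no condition on the intervals and to 5 with the joint error in its place. For Gcn2-/- ASNase against WT ASNase they went from 5 to 3 with a pseudocount of 1. For Atf4-/- ASNase against Gcn2-/- ASNase they went from 2 to 4 with an FPKM minimum of 1 and to 4 with none. Leaving out Col4a3bp changed no count.

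No paired analysis was possible because the table holds 1 value per group. Leaving out each replicate in turn was not run for the same reason. Overlapping intervals alone kept Timp1 in Atf4-/- and Col4a1 in both knockouts from being called after ASNase, and the table attaches no depth to a value.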
